A study of Homo sapiens with 15 samples.

Results

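Long-chain acyl-CoA synthetases join coenzyme A to free long-chain fatty acids at the cost of ATP, and only the resulting acyl-CoA can be oxidised, stored as triacylglycerol or built into membrane phospholipid. The family differs by place and by substrate: ACSL3 sits on the endoplasmic reticulum and on forming lipid droplets, ACSL1 serves both oxidation and lipid synthesis in liver, fat and muscle, and ACSL4 prefers arachidonic acid and other polyunsaturated fatty acids. ACSL5 is known from intestine and mitochondria, and ACSL6 from brain. ACSL3 has long been known as an androgen-responsive gene of prostate cancer cells. The genes described here are all rows of the expression table named ACSL and 1 digit, which gave 5 of 17272 genes, namely ACSL1, ACSL3, ACSL4, ACSL5 and ACSL6.

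LNCaP, an established line of human prostate cancer cells, needs androgen receptor signalling and carries a mutated receptor, and all libraries come from this 1 line. After 48 h in medium with charcoal-stripped serum, cells received the synthetic androgen R1881 at 1 nM, either with DMSO (10 libraries) or with 2 µM of the androgen receptor inhibitor darolutamide (5 libraries, called the combination), and were collected at 22 h. The text of the methods gives the group sizes the other way round and a higher R1881 concentration, and the sample labels were followed here. The library numbers in the labels form separate runs (51 to 55 and 71 to 75 for R1881, 86 to 90 for the combination), so treatment and run cannot be told apart.

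The libraries held 15830745 to 25317567 reads in genes. All 10 luminal prostate markers were in the table, KLK3 (which encodes PSA) among them, and KLK3 fell from 1588 ± 209 to 615 ± 55.9 CPM (SD, n = 10 and 5, limma adjusted p = 3.26e-10), while the 6 immune markers were not among the rows used here. Of 8 fibroblast markers 4 were in the table, and COL1A2, DCN, THY1 and PDGFRA were not analysed here. All 4 were higher with the combination by limma, as were 22.8% of all genes. Their summed level went from between 27.6 and 34.4 CPM to between 52.7 and 68.6 CPM. Most of it was VIM (means of 22.9 CPM with R1881 and 38.5 CPM with the combination). COL1A1 was at 6.03 and 10.1 CPM, COL3A1 at 1.84 and 8.19 CPM and LUM at only 0.21 and 0.50 CPM. The sum of the 2 neuroendocrine markers measured was 30.6 to 36.5 CPM and 49.7 to 56.0 CPM, that of the endothelial marker VWF 2.08 to 2.84 and 3.56 to 4.10 CPM, and that of 2 basal markers 0.88 to 1.62 and 0.71 to 0.93 CPM, R1881 first. Mitochondrially encoded genes took 2.78% ± 0.12 of the reads with R1881 and 3.59% ± 0.30 with the combination, and the 20 most abundant genes took 6.59% ± 0.12 and 7.77% ± 0.29. The part of these shifts in the results below was not tested. Combination replicate 4 stood apart on the second principal component (27.7% of the variance), at 49.4 against -28.8 to -2.30 for the other combination libraries, and replicate 3 lay at the other end.

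ACSL3 was 3.94-fold and ACSL1 1.35-fold lower with darolutamide, while ACSL4 and ACSL6, at far lower levels, rose. The log2(CPM + 0.5) values of all genes were tested with limma (trend, Benjamini-Hochberg adjustment, threshold 0.05), and of the 5 members 2 passed as lower and 2 as higher, ACSL5 being the one that missed. Among all genes tested, 23.7% were lower and 22.8% higher, so a call in itself does not set these genes apart. Run on the recovered whole reads, edgeR made the same calls for all 5 members, with 22.8% of all genes lower and 23.8% higher. CPM is the authors' unit, reads per gene scaled by 1 factor per library. Every log2 fold change below is of CPM + 0.5, combination minus R1881.

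**Figure D1:**
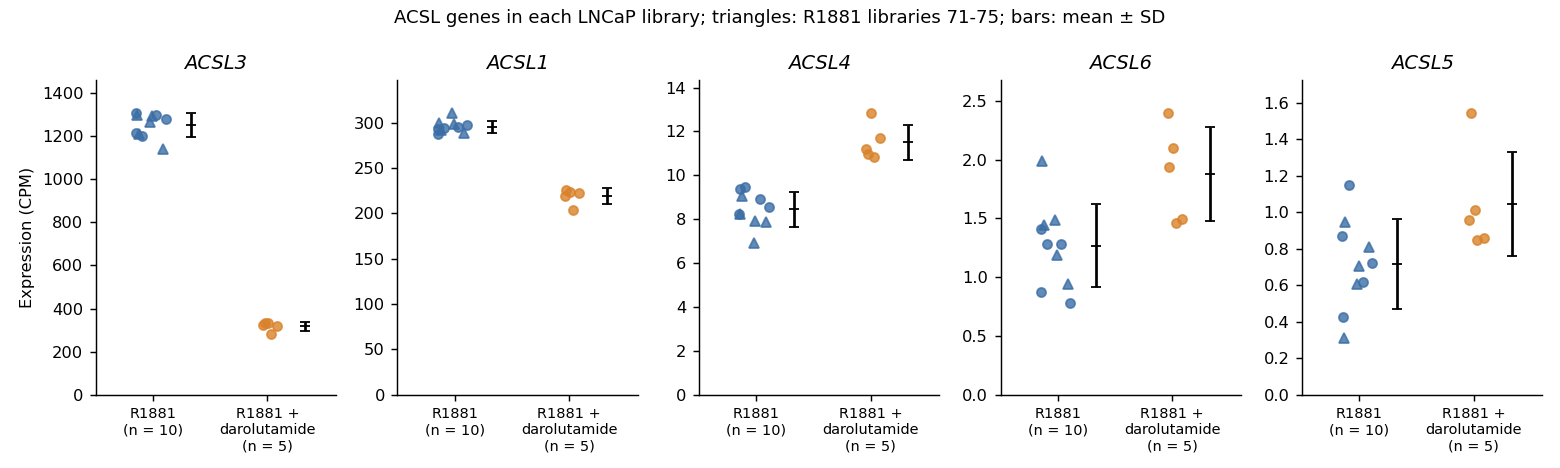
Expression in CPM of each ACSL gene, with 1 point per library (R1881 in blue, combination in orange, triangles for R1881 libraries 71 to 75) and the mean ± SD of each group (n = 10 and 5). The groups are apart for ACSL3, ACSL1 and ACSL4 and overlap for ACSL6 and ACSL5.

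The stretch upstream of the start of ACSL3 and ACSL1, which fell together, is shown beside that of ACSL4, which rose. Each is the 250 bases before the start in RefSeq (GRCh38.p14), 5′ to 3′ on the strand of the gene, at chr2:222860786-222861035 for ACSL3, chr4:184825969-184826218 for ACSL1 and chrX:109733258-109733507 for ACSL4, taken from the entry nearest to the canonical start (ACSL1 has 5 entries, ACSL3 and ACSL4 have 1 each), with every match to the GC box GGGCGG on either strand in capitals.
ACSL3: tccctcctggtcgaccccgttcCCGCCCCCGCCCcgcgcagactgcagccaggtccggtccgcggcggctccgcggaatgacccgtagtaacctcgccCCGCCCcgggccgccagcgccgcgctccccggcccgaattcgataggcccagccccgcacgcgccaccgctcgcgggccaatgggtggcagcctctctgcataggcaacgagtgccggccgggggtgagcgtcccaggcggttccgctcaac
ACSL1: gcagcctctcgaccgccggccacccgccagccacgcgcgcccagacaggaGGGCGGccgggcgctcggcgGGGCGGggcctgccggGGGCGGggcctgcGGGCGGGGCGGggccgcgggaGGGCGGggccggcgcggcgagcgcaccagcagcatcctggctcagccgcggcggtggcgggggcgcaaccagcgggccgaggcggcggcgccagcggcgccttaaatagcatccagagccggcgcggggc
ACSL4: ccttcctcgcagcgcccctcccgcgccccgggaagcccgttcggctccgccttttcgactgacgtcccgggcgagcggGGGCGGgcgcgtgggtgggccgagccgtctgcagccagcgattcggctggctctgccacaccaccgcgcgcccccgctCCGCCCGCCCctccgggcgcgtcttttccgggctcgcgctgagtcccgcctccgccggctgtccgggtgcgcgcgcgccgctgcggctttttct
All 3 windows are rich in G and C (75.2% in ACSL3, 83.6% in ACSL1 and 77.2% in ACSL4, with a median of 58% over 35116 RefSeq windows of this length) and in CpG (35, 41 and 42 against a median of 11). The GC box occurred 3 times in ACSL3, 6 times in ACSL1 and 3 times in ACSL4, some matches sharing bases, and in 42.6% of all windows. A CCAAT box (CCAAT on either strand) stood 75 bases before the start of ACSL3 and in neither of the others, against 32% of all windows. The half-site AGAACA of the androgen response element, searched on both strands, was in none of the 5 members' windows and in 12.4% of all windows. ACSL5, with 2 entries, has its window 1152 bases from the canonical start, and ACSL6 has 7 entries. The whole element (AGAACA, NNN and TGTTCT in a row) was likewise in none of the 5. It occurs in only 0.0028% of all windows, so its absence from 5 windows says nothing of these genes. The missing letters say nothing of where the receptor binds, which these data did not measure.

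ACSL3, the isoform of the endoplasmic reticulum and of nascent lipid droplets, is ENSG00000123983 and lies on the plus strand at chr2:222860942-222944639 (GRCh38, GENCODE version 44), with 17 exons in its canonical transcript. It ranked 103 by mean CPM over the 15 libraries. With R1881 its expression ran from 1142 through a median of 1273 to 1306 CPM, 18722 to 29483 reads per library. In the combination replicates 1 to 5 it was 322, 332, 332, 280.3 and 319 CPM. The groups were far apart, with the highest combination library at 332 CPM and the lowest R1881 library at 1142 CPM. The means were 1251 ± 55.4 CPM (SD, n = 10) and 317 ± 21.5 CPM (SD, n = 5), that is a log2 fold change of -1.98 with a standard error of 0.042 (limma, adjusted p = 1.08e-16), which is 3.94-fold lower. Only 78 of 17272 genes had a lower log2 fold change. Combination replicate 4 was the lowest of its group, and without it the mean was 326 ± 7.07 CPM (SD, n = 4).

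ACSL1 (ENSG00000151726, minus strand, chr4:184755595-184826818, 21 exons in the canonical transcript), the isoform of oxidation and lipid storage in metabolic tissues, was the second most abundant member. With R1881 it lay between 287 and 310.0 CPM with a median of 294 CPM. The combination replicates 1 to 5 were at 219, 224, 225, 204 and 222 CPM, all below every R1881 library. Its means of 296 ± 6.49 CPM (SD, n = 10) and 219 ± 8.55 CPM (SD, n = 5) gave a log2 fold change of -0.43 with a standard error of 0.028 (limma, adjusted p = 5.73e-10), or 1.35-fold lower. Replicate 4 was again the lowest, and the mean of the other combination libraries was 223 ± 2.53 CPM (SD, n = 4). Such a separation downwards was found in 12.6% of all genes, ACSL1 and ACSL3 among them.

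ACSL4 (ENSG00000068366, minus strand, chrX:109624244-109733403, 16 exons in the canonical transcript) activates arachidonic acid and thereby supplies the polyunsaturated phospholipids that are oxidised in ferroptosis. Its level was low, from 6.90 through a median of 8.39 to 9.48 CPM with R1881 (102 to 215 reads per library). With the combination it was 11.2, 12.8, 10.96, 10.8 and 11.7 CPM in replicates 1 to 5, above every R1881 library. The means were 8.45 ± 0.79 CPM (SD, n = 10) and 11.5 ± 0.81 CPM (SD, n = 5), that is a log2 fold change of 0.43 with a standard error of 0.071 (limma, adjusted p = 8.01e-05). The groups were separate in this direction in 10.8% of all genes.

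ACSL6 (ENSG00000164398, minus strand, chr5:131949973-132012243), the isoform of brain that favours docosahexaenoic acid, was barely expressed. With R1881 it ran from 0.779 through a median of 1.28 to 1.99 CPM, on 13 to 45 reads per library. In the combination it was 2.39, 2.10, 1.94, 1.46 and 1.49 CPM, so that the groups overlapped and 2 of 5 combination libraries exceeded every R1881 library. The means of 1.27 ± 0.35 CPM (SD, n = 10) and 1.88 ± 0.40 CPM (SD, n = 5) gave a log2 fold change of 0.44 with a standard error of 0.144 (limma, adjusted p = 0.0188). The call was lost in limma without combination replicate 1 (log2 fold change 0.36, adjusted p = 0.0684), without combination replicate 2 (0.40, adjusted p = 0.0522) and against R1881 libraries 71 to 75 alone (0.32, adjusted p = 0.141). Of the 50-base stretches in its annotated transcripts 13.6% also occur in transcripts of other genes, against 0.58% for ACSL3 and 0.10% for ACSL1, so how reads were assigned to ACSL6 is less certain.

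ACSL5 (ENSG00000197142, plus strand, chr10:112374116-112428379), which activates dietary fatty acids in the intestine, was the lowest member in CPM. With R1881 it lay between 0.309 and 1.15 CPM with a median of 0.711 CPM, on 7 to 26 reads per library. The combination libraries were at 0.957, 1.01, 1.54, 0.849 and 0.858 CPM in replicates 1 to 5, overlapping with R1881. The log2 fold change was 0.35 (95% interval 0.04 to 0.67, adjusted p = 0.0618 from limma), so a rise was not detected by this test at this depth, while the interval allows one as large as those of ACSL4 and ACSL6. In limma it passed without R1881 replicate 4 (adjusted p = 0.028), without R1881 replicate 5 (adjusted p = 0.0478) or without combination replicate 4 (adjusted p = 0.0461). An exon of ZDHHC6, transcribed from the opposite strand, overlaps ACSL5 exons by 144 bases. ZDHHC6 was at 36.2 ± 1.73 CPM with R1881 (SD, n = 10), and the strand setting of the read counting is not given in the sources used here.

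**Figure D2:**
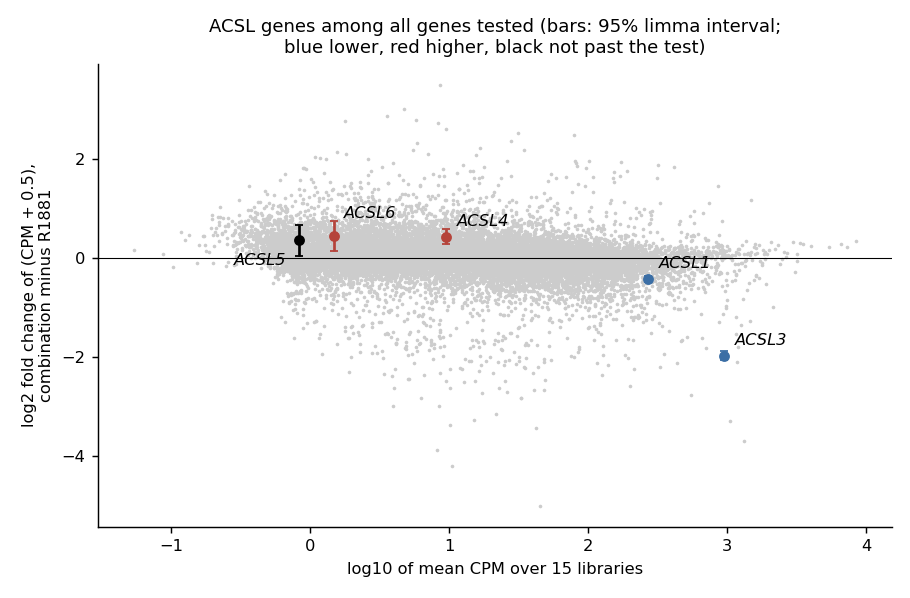
Log2 fold change (combination minus R1881) against the log10 of the mean CPM for all 17272 genes in grey, with the ACSL genes and their 95% limma intervals. ACSL3 at -1.98 lies near the lower edge among the abundant genes, and the low members ACSL4, ACSL5 and ACSL6 lie between 0.35 and 0.44.

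Between the runs of R1881 libraries no member passed the test, and the abundant ones differed little. From libraries 51 to 55 to libraries 71 to 75, ACSL3 had a log2 difference of -0.02 (95% interval -0.13 to 0.08) and ACSL1 of 0.02 (-0.05 to 0.09). ACSL6 differed most, at 0.23 (-0.11 to 0.57, adjusted p = 0.488 from limma) beside its log2 fold change of 0.44 between treatments, followed by ACSL4 at -0.15 (-0.31 to 0.01, adjusted p = 0.32 from limma) beside 0.43. ACSL5 was at -0.10 (-0.47 to 0.28). Of the 5 members 0 passed limma's test between these runs (adjusted p under 0.05), where 1.1% of all genes passed. None of the members had an unadjusted p under 0.05 either. Against each R1881 run on its own, ACSL3 was lower by the same order, with log2 fold changes of -1.99 and -1.97, as was ACSL1 (-0.42 and -0.44), and ACSL4 was higher (0.35 against libraries 51 to 55 and 0.50 against 71 to 75).

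Levels of different genes were compared per length, as CPM per kb of the union of annotated exons. With R1881 the order was ACSL3 (86.7 ± 3.84 CPM per kb), ACSL1 (45.4 ± 1.00), ACSL4 (0.85 ± 0.08), ACSL5 (0.17 ± 0.06) and ACSL6 (0.07 ± 0.02, all SD, n = 10). ACSL5 and ACSL6 overlapped between libraries, and the other neighbours in this order did not. With the combination ACSL1 came first at 33.6 ± 1.31 CPM per kb and ACSL3 second at 22.0 ± 1.49 (SD, n = 5), in every one of the 5 libraries. ACSL4 at 1.15 ± 0.08, ACSL5 at 0.25 ± 0.07 and ACSL6 at 0.11 ± 0.02 CPM per kb stayed far below both.

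The summed per-length level of the family was 133 ± 4.24 CPM per kb with R1881 and 57.1 ± 2.89 with the combination, a change of -57.1%. ACSL3 held 65.0% ± 0.97 of that sum with R1881 (63.5% to 66.6% over 10 libraries) and 38.4% ± 0.73 with the combination (37.2% to 39% over 5 libraries). The share of ACSL1 went from 34.1% ± 0.94 to 58.9% ± 0.77, and that of ACSL4, ACSL5 and ACSL6 together from 0.82% ± 0.09 to 2.65% ± 0.09. With canonical transcripts as the length, ACSL1 and ACSL3 were nearly level in the combination, at 49.7% and 47.8%.

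**Figure D3:**
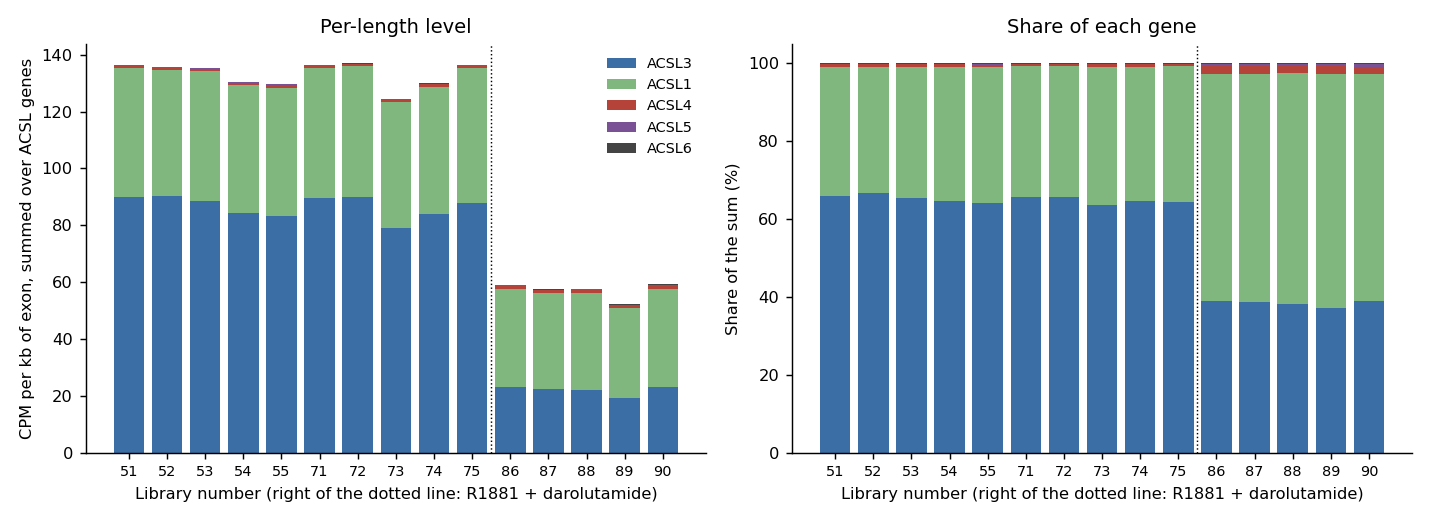
Per-length level of each ACSL gene in each library, stacked in CPM per kb of exon (left) and as a percentage of the sum (right), with library numbers on the x axis and the combination to the right of the dotted line. The R1881 libraries sum to between 125 and 137 CPM per kb and the combination libraries to between 52.2 and 59.2, with ACSL3 the larger part on the left and ACSL1 on the right of the line.

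Ratios between members do not depend on how a library is scaled. On the log2 scale and per length, ACSL3 over ACSL4 was 6.68 ± 0.15 with R1881 (SD, n = 10) and 4.25 ± 0.10 with the combination (SD, n = 5), so that the excess of ACSL3 over ACSL4 went from 102 to 19.0 times. ACSL1 over ACSL3 went from -0.93 ± 0.06 to 0.62 ± 0.05, and ACSL1 over ACSL4 from 5.75 ± 0.16 to 4.87 ± 0.09. For each of these 3 ratios the ranges of the groups did not overlap. No test was made of the ratios.

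The genes most like a member were taken as those of highest Pearson correlation of log2(CPM + 0.5) over the 15 libraries. Since the libraries fall into separate treatment groups, these values mostly follow the treatment, and they are given as a description. Nearest to ACSL3 was SMS, the spermine synthase (r = 0.9996), at 605 ± 19.3 CPM with R1881 (SD, n = 10) and 189 ± 9.19 with the combination (SD, n = 5). It was followed by RP11-312J18.5, listed by a clone name, and by CYP2U1, a cytochrome P450 that hydroxylates fatty acids (log2 fold change -2.18). Of the genes compared, 8.9% had an r above 0.9 with ACSL3, so these 3 are not particular in this. For deviations from the group means, the correlation with ACSL3 was 0.945 for SMS, 0.90 for RP11-312J18.5 and 0.901 for CYP2U1. The deviations of ACSL3 themselves followed the second principal component (-0.906), on which combination replicate 4 lay farthest out.

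ACSL1 was nearest to ZNF652, a zinc finger protein (r = 0.996), SSR3, a subunit of the translocon-associated complex (r = 0.995), and KDELR2, a receptor that returns proteins to the endoplasmic reticulum (r = 0.995). These genes fell more than ACSL1, with log2 fold changes of -0.95, -0.96 and -0.73. For ACSL4 the nearest genes were TMEM159, a lipid droplet assembly factor also called LDAF1 (r = 0.953), the long noncoding RNA DRAIC (r = 0.941) and PHYH, the phytanoyl-CoA hydroxylase of peroxisomes (r = 0.937). TMEM159 rose from 23.5 ± 1.49 to 36.3 ± 1.85 CPM (log2 fold change 0.62, limma adjusted p = 1.35e-08). ACSL6 was nearest to AC005618.6, RPL9P32 and RPL5P4, at r = 0.886, 0.877 and 0.877, of which the last 2 are ribosomal protein pseudogenes whose reads cannot be told from their parent genes with certainty. ACSL5, with a mean under 1 CPM, was left out.

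Genes that make, bind, hydrolyse or use acyl-CoA, and genes of neighbouring steps, were described in 8 lists, of which 89 of 126 genes were in the table. The lists thus also hold genes that do not themselves handle acyl-CoA, such as the phosphatase LPIN1, the droplet coat protein PLIN3 and FTH1. Of these 89 genes, limma called 27 lower (30.3%) and 23 higher (25.8%) and left 39 without a call, against 23.7% lower and 22.8% higher among all genes. Single lists held 8 to 16 genes, and their counts below are to be read beside these shares of all genes. Their median log2 fold change was 0.00, as was that of all genes, and 1 gene, MOGAT2, had a larger fall than ACSL3. With library totals the balance turned, to 23 lower and 32 higher. Without combination replicate 4, 35 were lower and 25 higher, and without replicates 3 and 4 of the combination, 32 and 23.

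**Figure D4:**
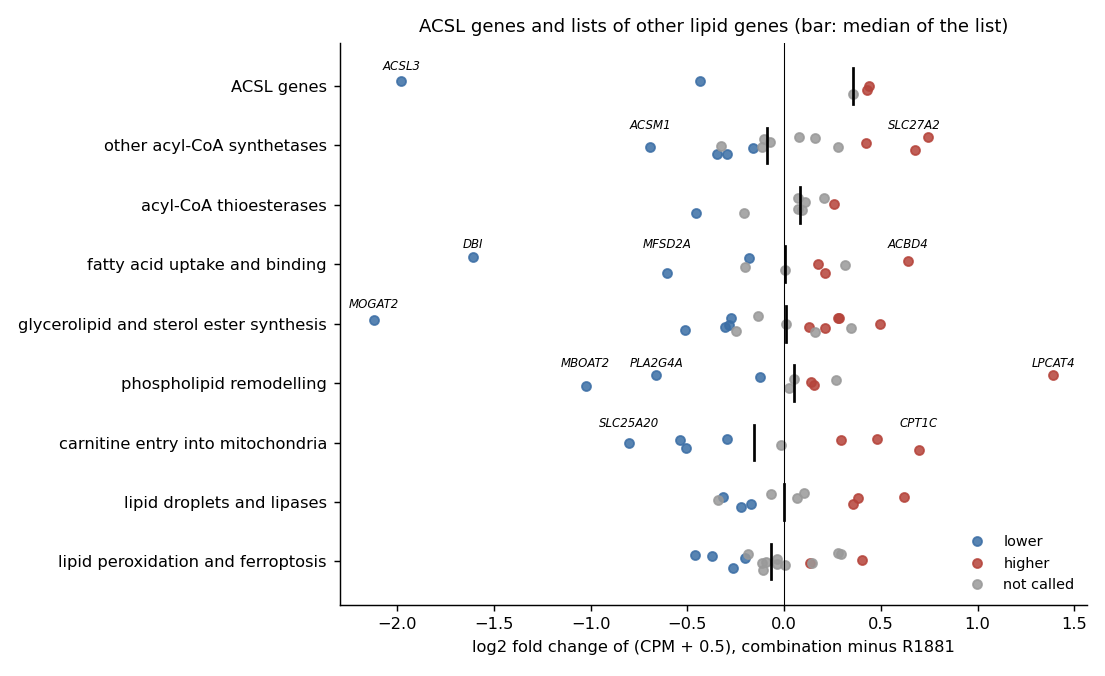
Log2 fold change (combination minus R1881) of the ACSL genes and of each gene in the lists of other lipid genes, with 1 point per gene coloured by limma's call and a black bar at the median of each list. ACSL3 at -1.98, MOGAT2 at -2.12 and DBI at -1.61 are the lowest points, and LPCAT4 at 1.39 is the highest.

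Among the other acyl-CoA synthetases, 4 of 14 passed as lower and 3 as higher, and 7 did not pass (median log2 fold change -0.09). ACSM1 and ACSM3, medium-chain synthetases of mitochondria, fell by 0.69 and 0.35 on the log2 scale, and the most abundant of the list, AACS, which activates acetoacetate, went from 93.7 ± 6.05 to 76.6 ± 9.77 CPM (log2 fold change -0.30). SLC27A2, a very-long-chain synthetase and fatty acid transporter, rose from 17.6 ± 1.28 to 28.4 ± 2.13 CPM (0.67, adjusted p = 4.67e-08 from limma), and ACSF2 rose by 0.42. Without combination replicate 4, 5 of the 14 were higher, as with library totals. No member of this list moved as far as ACSL3.

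Acyl-CoA thioesterases undo the reaction and release the free fatty acid. Only ACOT9 was lower (log2 fold change -0.45) and only ACOT13 higher (0.26) by limma's test, and 6 of 8 did not pass (median 0.08). ACOT2, the most abundant, was at 44.2 ± 1.92 CPM with R1881 and 46.6 ± 2.42 with the combination (adjusted p = 0.154 from limma), and its reads may be shared with its close paralog ACOT1. Without combination replicate 4, 2 were lower and 2 higher, and with library totals 4 were higher, ACOT2 among them (0.14).

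In the list of fatty acid uptake and binding, 3 of 9 passed as lower and 3 as higher (median 0.00). DBI, the acyl-CoA binding protein that takes up the product of the synthetases, went from 663 ± 27.7 CPM (SD, n = 10) to 216 ± 3.27 CPM (SD, n = 5), that is a log2 fold change of -1.61 with a standard error of 0.031 (limma, adjusted p = 3.44e-17). Of its relatives, ACBD6 and ACBD4 rose, by 0.21 and 0.64 on the log2 scale, while ACBD3 fell by 0.18, and ACBD5 (0.00) and ACBD7 (-0.20) did not pass, the last 3 being named after their values were seen. MFSD2A, a carrier of lysophospholipids with docosahexaenoic acid, fell by 0.60 on the log2 scale at a level of 2.58 ± 0.73 CPM with R1881.

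Of the genes of glycerolipid and sterol ester synthesis, phosphatases of the LPIN family included, 5 of 15 were lower and 5 higher (median 0.01). MOGAT2, a monoacylglycerol acyltransferase, fell from 7.72 ± 0.70 to 1.39 ± 0.21 CPM (log2 fold change -2.12, limma adjusted p = 2.82e-13), and LPIN1, a phosphatidate phosphatase, by 0.51. DGAT2, which completes triacylglycerol, rose from 36.1 ± 2.78 to 51.0 ± 2.02 CPM (0.50, adjusted p = 5.90e-07 from limma), and LPIN3 rose by 0.29 (0.19 without combination replicate 4). The most abundant of the list, AGPAT3, did not pass (0.16, adjusted p = 0.126 from limma). AGPAT3 was at 0.05 without combination replicate 4 and passed with library totals (0.23, adjusted p = 0.0257 from limma).

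Phospholipid remodelling, where acyl-CoA of ACSL4 and ACSL3 is put into membrane lipids, had 3 lower and 3 higher of 9 genes (median 0.05). MBOAT2, an acyltransferase for monounsaturated chains, fell from 502 ± 20.9 to 247 ± 19.6 CPM (log2 fold change -1.03, adjusted p = 1.66e-12 from limma). PLA2G4A, the phospholipase that releases arachidonic acid, fell by 0.66 on the log2 scale from 1.65 ± 0.45 CPM with R1881. LPCAT4 rose from 7.47 ± 1.20 to 20.5 ± 4.31 CPM (1.39, adjusted p = 2.39e-08 from limma), the largest rise in the lists. LPCAT1 was at 0.16 (adjusted p = 0.0403 from limma), but at 0.08 (adjusted p = 0.12) without combination replicate 4, where it was 163.5 CPM, and its call was also lost without any 1 of combination replicate 1 and R1881 replicates 1, 4, 5, 7, 9 and 10 (0.15 to 0.17). Only 1 gene was higher when R1881 replicate 1, R1881 replicate 5 or combination replicate 1 was left out.

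Carnitine carries acyl groups from acyl-CoA into mitochondria. Of 8 genes of this step 4 were lower, 3 higher and 1 did not pass (median -0.15). Among all genes 23.7% were lower and 22.8% higher, and the list is small. The carnitine-acylcarnitine carrier SLC25A20 fell from 45.3 ± 2.57 to 25.7 ± 1.55 CPM (log2 fold change -0.80, adjusted p = 2.15e-10 from limma) and the carnitine importer SLC22A5 by 0.54. CPT1A, the most abundant and the gatekeeper of the step, went from 219 ± 6.42 to 179 ± 2.49 CPM (-0.29). CPT1C, a poorly active relative, and CRAT, which handles short chains, rose by 0.70 and 0.48.

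Lipid droplet and lipase genes had 3 of 10 lower and 3 higher (median 0.00), and 1 lower and 3 higher with library totals. PLIN3, a droplet coat protein, was at 64.4 ± 5.70 and 52.7 ± 14.0 CPM (log2 fold change -0.32, adjusted p = 0.0201 from limma). Combination replicate 4 was at 76.95 CPM against at most 50.5 in the others. The PLIN3 call was lost without combination replicate 1 (-0.28), 2 (-0.30) or 3 (-0.24) and with library totals (-0.25). It was also lost against R1881 libraries 51 to 55 alone (-0.26, adjusted p = 0.149 from limma) or 71 to 75 alone (-0.37, adjusted p = 0.0539). A term for the R1881 runs ended it too (-0.26, adjusted p = 0.0979 from limma). HILPDA fell by 0.22 on the log2 scale, and BSCL2, which encodes the droplet protein seipin, and PNPLA3 rose by 0.38 and 0.36.

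Genes of lipid peroxidation and ferroptosis, the setting in which ACSL4 is best known, had 4 of 16 lower, 2 higher and 10 that did not pass (median -0.07), and 7 were lower without combination replicate 4 and 4 higher with library totals. GPX4, chosen after its value was seen because it detoxifies lipid peroxides, was at 163 ± 21.3 CPM with R1881 and 157 ± 46.7 with the combination (adjusted p = 0.58 from limma). DHODH and GCLM fell by 0.46 and 0.37 on the log2 scale, and HMOX1 rose by 0.40. FTH1, the most abundant of the list, moved by 0.13 on the log2 scale (limma, adjusted p = 0.00223), and its reads may be shared with its many processed pseudogenes.

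ACSL3, ACSL1 and ACSL4 kept their direction and their call under all 26 other settings. The log2 fold change of ACSL3 ran from -2.0 to -1.91, that of ACSL1 from -0.44 to -0.36 and that of ACSL4 from 0.35 to 0.50. ACSL6 kept its direction in 26 of 26 settings and its call in 22. ACSL5 was higher in all 25 settings that gave a value and passed the test in 4. With reads scaled by library totals alone, which raised the median of all genes by 0.07 on the log2 scale and gave 3030 lower and 5326 higher genes in place of 4098 and 3946, ACSL3 was at -1.91, ACSL1 at -0.36 and ACSL4 at 0.49.

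**Figure D5:**
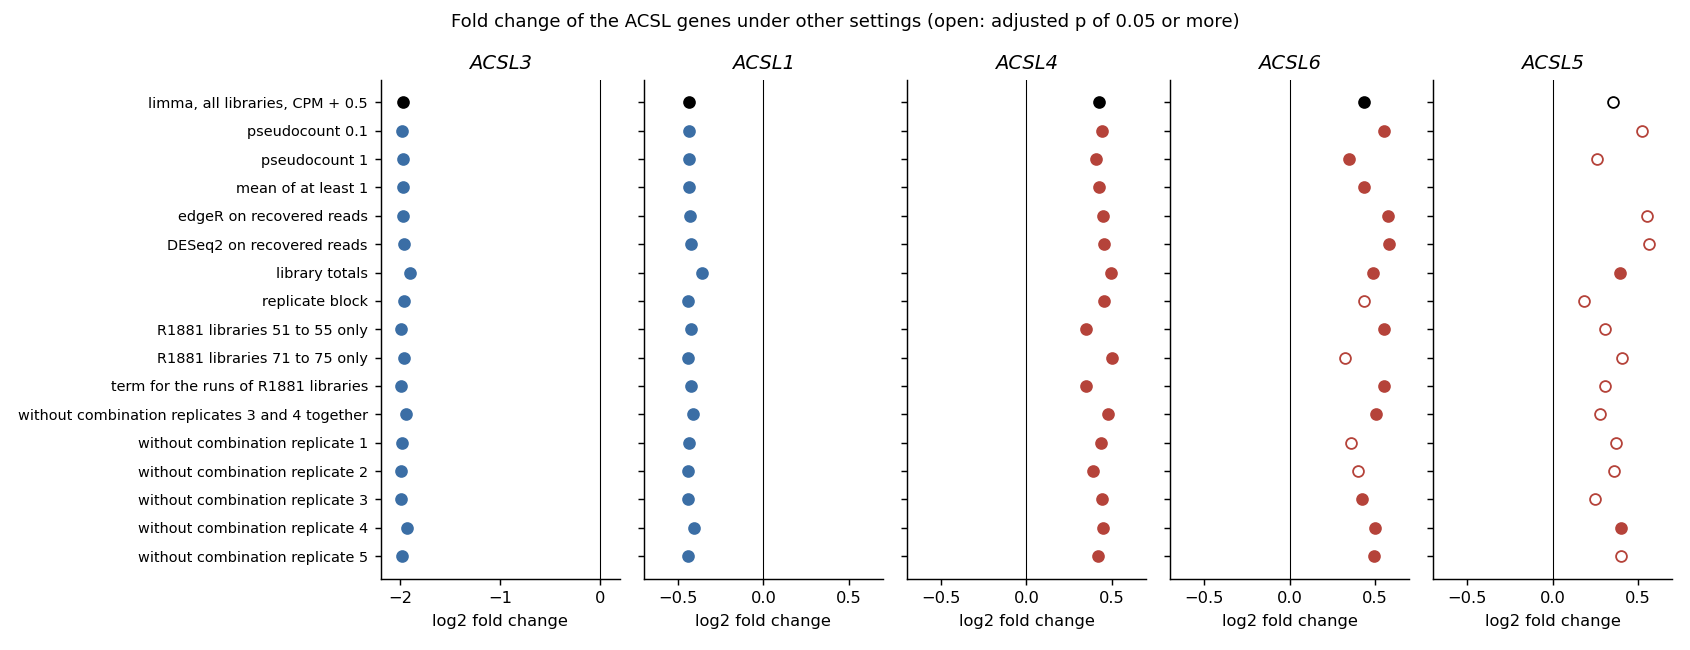
Log2 fold change of each ACSL gene in limma with all libraries (top) and under other settings, with filled points for an adjusted p under 0.05 and open points for the rest. The x axes differ between ACSL3 and the other genes. ACSL3, ACSL1 and ACSL4 are filled throughout, and ACSL6 and ACSL5 change between filled and open.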

How the data were processed

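Poly-A RNA of 15 LNCaP libraries was read with single-end reads of 50 bases. The authors used STAR (genome GRCh38) for alignment and featureCounts for counting, and deposited the counts as CPM. The versions of these tools, the annotation, the strand setting and any filter are not given in the sources used here, while the processing notes of the submitters name bcl2fastq 2.17. The deposited values are a scaled signal: 100% of them were whole reads (tolerance 0.001 reads) divided by 1 factor per library. Columns summed to 1053406 to 1078567 with R1881 and to 1005403 to 1031224 with the combination, so the scale was not the column total alone.

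limma 3.58.1 (R 4.3.3) was fitted to log2(CPM + 0.5) of all 17272 genes, unfiltered. On the recovered reads edgeR 4.0.16 called 3943 genes lower and 4106 higher, and DESeq2 1.42.0 was also run. Other settings were pseudocounts of 0.1 and 1, a minimum mean of 1 CPM, library totals, the replicate number as a block, each R1881 run alone or as a term, and libraries left out. The fit was tested on simulated data. Biological replicates is the term of the paper for the libraries, whose labels name no separate cultures, and p-values measure the spread between them. Each pair differed by more than sampling noise (chi-square per gene of at least 1.63).

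The members and lists were chosen with earlier results of these data known. Named were all members, KLK3, in each list the most abundant gene and, among called genes whose mean reached 1 CPM, the 2 largest falls and rises, and the 3 genes most like each member that reached this mean. Symbols were matched to the table directly or, for 1 list gene, by an older symbol. Positions and lengths are from GENCODE version 44, which may differ from the annotation used for counting.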

Additional observations from a re-analysis of the deposited data

Results flagged for a closer look

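In groups of 5 or 10 libraries, a value was singled out when its gap to the nearest other value was large beside the range. The limit was a set share of the range of the group, lower for 10 libraries than for 5. A value was singled out in 9 of 104 groups of values from 52 genes, where chance gives about 1 in 20. Of the 9, 6 were in combination replicate 4. Among the ACSL genes, ACSL3 was 280.3 CPM in that library against 319 to 332 CPM in the other combination libraries, and ACSL1 was 204.1 CPM against 219 to 225 CPM. For ACSL5 the value set apart was that of combination replicate 3, 1.54 CPM, the others lying between 0.849 and 1.01 CPM. In combination replicate 4, AGPAT3 was 175.7 CPM against 112 to 122 CPM, LPCAT1 was 163.5 CPM against 119 to 128 CPM, CRAT was 68.8 CPM against 37.7 to 45.3 CPM and PLIN3 was 76.95 CPM against 41.4 to 50.5 CPM. With R1881, ACBD4 was 7.43 CPM in replicate 6 against 4.14 to 5.87 CPM, and PLA2G4A was 2.73 CPM in replicate 10 against 1.17 to 1.92 CPM.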

How the results depend on the processing

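ACSL5 passed with library totals (log2 fold change 0.39, adjusted p = 0.0366 from limma) and ranged from 0.25 to 0.41 when 1 library was left out. It was 0.18 with the replicate block (adjusted p = 0.442) and 0.52 with a pseudocount of 0.1, 0.55 in edgeR and 0.56 in DESeq2, none of them past the test. ACSL6 did not pass against R1881 libraries 71 to 75 alone (0.32, adjusted p = 0.141) or with the replicate block (0.43, adjusted p = 0.0732), and ranged from 0.36 to 0.50 with 1 library left out. The cause was not tested. Replicate numbers did not pair the libraries: deviations of same-numbered libraries correlated at -0.14 to 0.34 and 0 of 5 combination libraries were closest to their own number. Under the block 3165 genes were lower and 3077 higher, and it changed the call of no other member but ended those of LPCAT1, FTH1, PLIN3, LPIN3 and PNPLA3 among the named list genes, whose values under other settings were computed after seeing the data. Without combination replicates 3 and 4 together, HILPDA (-0.14), PNPLA3 (0.33) and LPCAT1 (0.10) lost their calls. PNPLA3 (0.34) and PLIN3 (-0.26) lost theirs against R1881 libraries 51 to 55 alone. Against libraries 71 to 75 alone, HMOX1 (0.31), LPCAT1 (0.10), LPIN3 (0.24) and PLIN3 (-0.37) lost theirs. FTH1 was 0.20 with library totals. With canonical transcripts, a length chosen after seeing the data, the shares of ACSL3 were 73.3% with R1881 and 47.8% with the combination and those of ACSL1 26.0% and 49.7%, and with the longest transcripts the combination share of ACSL3 was 39.5%. Of 416 list counts under other settings, 19 moved by more than 1.5 times, all between 1 and 7 genes. ACSL5 and ACSL6 rest on 7 to 60 reads per library, which limits their precision.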

Other observations

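Over the 15 libraries, deviations of ACSL1 and ACSL3 from the group means of log2(CPM + 0.5) had a Pearson correlation of 0.708. Those of ACSL3 and ACSL4 had one of 0.176. Combination replicate 4 was set apart as the lowest of its group for both ACSL1 (204.1 CPM) and ACSL3 (280.3 CPM). Its weight in the correlation of 0.708 was not tested. With R1881, replicate 10 had the lowest ACSL1 (287 CPM) and the highest ACSL3 (1306 CPM). The deviations of ACSL3 also followed the second principal component (-0.906), those of ACSL1 less so (-0.701) and those of ACSL4 hardly (-0.186). Combination replicate 4 lay farthest out on that component. The component was computed from genes with a mean of at least 1 CPM, these 3 included, and the values are descriptions without a test.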
